A study of Mus musculus with 16 samples.

Results

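The Kupffer cell and macrophage markers described here are a list of 34 genes, read from whole liver RNA on Affymetrix gene arrays. They were chosen by name with earlier results of these data known, so shares of members set beside all genes are descriptions. A member counted as measured if the platform annotation named a probe set for that gene alone, and the probe set with the highest mean stood for the gene. Of the 34 genes, 33 had such a probe set, and 32 of these passed a filter on dim signal, among 19938 genes with a probe set of their own and 13152 that passed. The filter asked for the array's 40th percentile, a log2 signal of 7.16 to 7.44, in at least 4 arrays. Slc11a1, a metal transporter of the phagosome, was not analysed here for want of a listed probe set, and Itgam, the integrin chain CD11b, was too dim to be tested. Marco and Aif1 reached the level in 5 arrays, Fcgr1 in 4 and Dpep2 in 10, so these 4 genes passed only through the arrays in which they were bright. The other 28 members reached it in at least 14 of the 16 arrays.

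The mice were of strain 129 and of 4 genotypes, with 4 arrays each: wildtype, Rassf1a-/-, Sav1+/- and Rassf1a-/- Sav1+/-. Rassf1a is a tumour suppressor isoform of the gene Rassf1, and Sav1 encodes the scaffold of the kinases at the head of the Hippo pathway. The labels name no promoter, Cre driver or restriction to a cell type for either allele, and no treatment. The comparisons asked which transcripts of the liver differ with loss of Rassf1a, with loss of 1 Sav1 copy and with both, as the study's design implies. The sources used here do not give age, sex, hour of collection or batch. The labels do not say that a genotype's 4 samples came from different animals. Every p-value therefore measures the spread between these samples, which may in part be technical. Replicates are numbered in the order of the deposited samples.

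Kupffer cells are the resident macrophages of the liver. They sit in the sinusoids, where they clear particles, microbes and aged red blood cells from portal blood, and they carry receptors that few other liver cells make. In whole liver RNA a change of such a marker can come from more cells or from more RNA per cell, and these cannot be told apart. The members fall into 7 roles: Kupffer cell identity with 9 genes, general macrophage with 7, complement C1q with 3, MHC class II with 3, lysosome and phagosome with 5, receptor signalling with 6, and the dipeptidase Dpep2.

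Checks on the arrays bear on all that follows. Hepatocyte markers were bright, with Alb between 13.60 and 14.02, and 6 of 7 listed hepatocyte markers were measured and passed the filter. Sav1 averaged 8.53 in wildtype and 8.61 in Rassf1a-/- livers against 7.64 in Sav1+/- and 7.65 in Rassf1a-/- Sav1+/- livers. Limma gave -0.90 (adjusted p = 0.110) and -0.88 (adjusted p = 0.0230) against wildtype. Sav1+/- replicate 2 had the highest Sav1 signal of the Sav1+/- arrays, 8.17. The Rassf1 probe set reads all isoforms of the gene and says nothing about Rassf1a. Y-linked genes averaged 8.87 or more in 5 arrays and 4.17 or less in the rest. The 5 were Sav1+/- replicates 3 and 4, Rassf1a-/- Sav1+/- replicates 1 and 2, and Rassf1a-/- replicate 2, so no wildtype array was of the high kind. Xist, the RNA of X inactivation, ran opposite, with 2.12 to 4.31 in the 5 and 10.34 or more in the rest. Every genotype but wildtype thus held arrays of both kinds, so its samples came from more than 1 animal. Clock genes had the largest differences between Rassf1a-/- and wildtype livers, with log2 values of 3.37 for Arntl and -4.16 for Ciart. In Sav1+/- livers the largest were 5.93 for Cyp4a12a and -4.89 for Sult3a2. The part of sex and of the hour of collection in the members' values was not tested beyond the fits with the Y-linked mean.

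Within each genotype a single array held most of the members' highest values. Wildtype replicate 3 was the highest of its 4 arrays for 26 of 33 members, where it was highest for 29.2% of all genes tested. Rassf1a-/- replicate 4 was highest for 28 members (25.0% of genes), Sav1+/- replicate 2 for 30 (41.4%) and Rassf1a-/- Sav1+/- replicate 1 for 26 (13.1%). At the low end, Rassf1a-/- replicate 2 was the lowest of its genotype for 25 members (32.6% of genes) and Sav1+/- replicate 1 for 21 (46.0%). Over all 16 arrays, Sav1+/- replicate 2 gave the highest value of 18 members and Rassf1a-/- Sav1+/- replicate 1 that of 10. The MHC class II genes Cd74, H2-Aa and H2-Ab1 peaked in Rassf1a-/- replicate 4, Dpep2 in Sav1+/- replicate 4 and Marco in Rassf1a-/- Sav1+/- replicate 2.

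**Figure D1:**
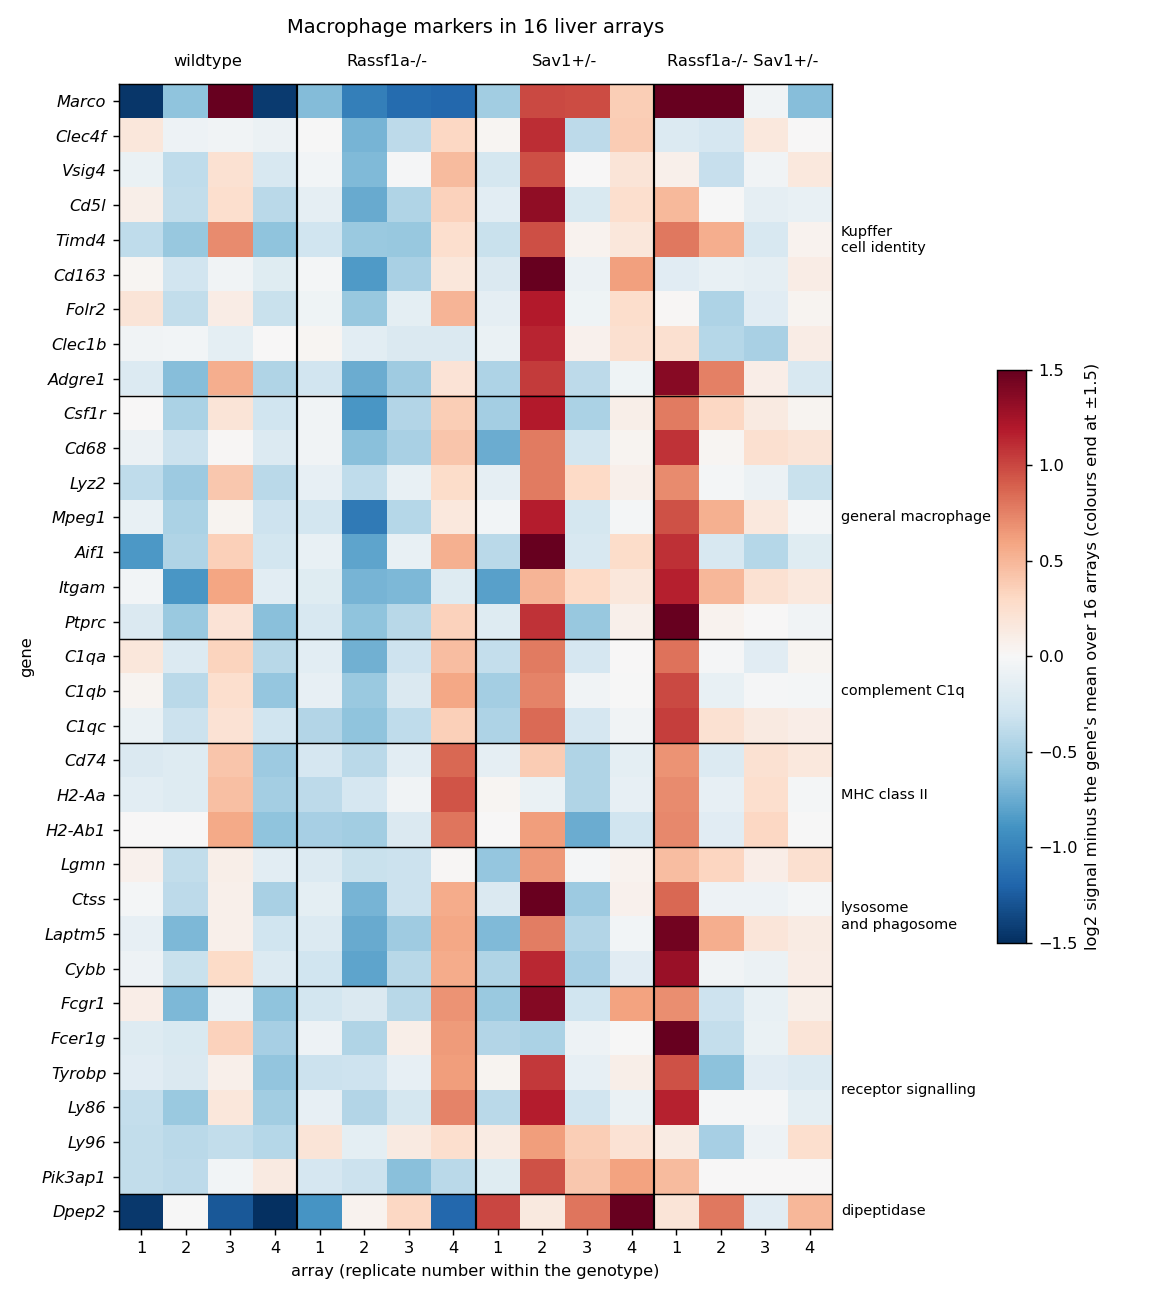
Each row is a marker and each column an array, grouped by genotype, and the colour gives the log2 signal minus the gene's mean over the 16 arrays. Red fills most of the columns of Sav1+/- replicate 2, the array with the highest value of 18 of the 33 members, and Rassf1a-/- Sav1+/- replicate 1, with 10.

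This unevenness set the spread against which the genotypes were compared. The within-genotype SD had a median of 0.49 on the log2 scale over the 32 tested members, against 0.26 over all genes tested, and 31 of the 32 lay above the latter. Ly96 had the smallest spread, 0.22, and Marco the largest, 1.16.

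The members stood out by unequal amounts in these arrays. Taken as the excess over the mean of the other 3 arrays of the genotype, the median over all 33 members was 1.07 in Sav1+/- replicate 2 and 0.80 in Rassf1a-/- Sav1+/- replicate 1, where all genes had medians of 0.13 and -0.02. These arrays were singled out for their high values, so the excess is a description with no test. Among the 9 Kupffer cell identity genes the median excess was 1.10 in the former array and 0.51 in the latter. Clec4f, the galactose-binding lectin that defines Kupffer cells, stood 1.10 above its group in Sav1+/- replicate 2 and 0.18 below it (-0.18) in Rassf1a-/- Sav1+/- replicate 1. Cd163, the receptor for haemoglobin bound to haptoglobin, had an excess of 1.57 against -0.13. For Vsig4, a complement receptor, the values were 0.99 and 0.16, and for Folr2, a folate receptor, 1.16 and 0.21. The other identity genes stood further above their group in the latter array, Adgre1 by 1.16, Timd4 by 0.68, Cd5l by 0.57 and Clec1b by 0.51. Marco alone had the larger excess there, 1.64 against 0.72 in Sav1+/- replicate 2. All 9 Kupffer identity genes were highest of 4 in the first array, and 4 of 9 in the second.

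General leukocyte genes were high in both arrays. Ptprc, the CD45 phosphatase of all leukocytes, had an excess of 1.31 in Sav1+/- replicate 2 and 1.68 in Rassf1a-/- Sav1+/- replicate 1, and Laptm5, a lysosomal membrane protein of blood cells, 1.15 and 1.16. Fcer1g, the signalling chain shared by several Fc receptors, differed in the other direction: it was 0.30 below its group (-0.30) in the first array and 1.67 above it in the second. Tyrobp, the signalling adaptor DAP12, was high in both, with 1.06 and 1.29.

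**Figure D2:**
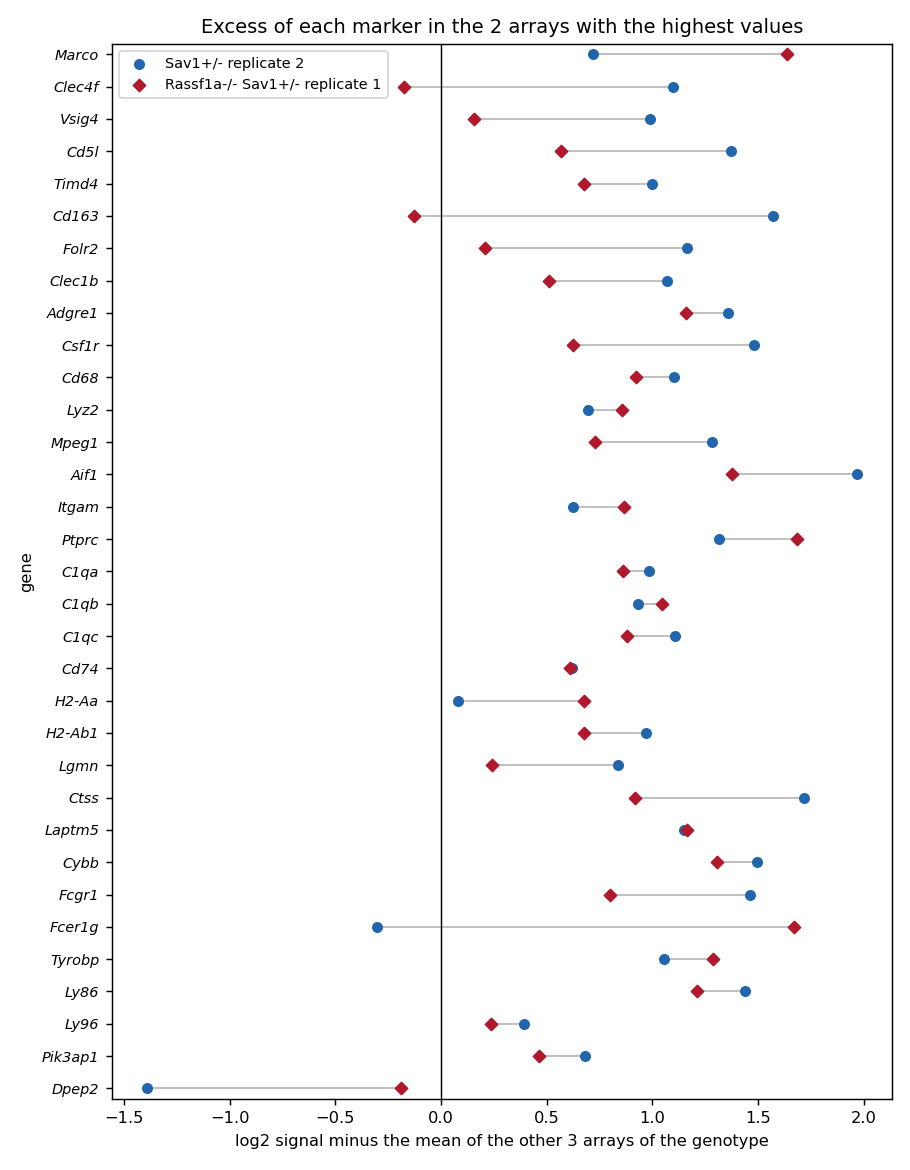
For each marker, the horizontal axis gives the log2 signal of Sav1+/- replicate 2 (circles) and Rassf1a-/- Sav1+/- replicate 1 (diamonds) minus the mean of the other 3 arrays of the same genotype. The diamonds of Clec4f (-0.18) and Cd163 (-0.13) lie left of 0 where their circles lie at 1.10 and 1.57, and Fcer1g shows the reverse, with its circle at -0.30 and its diamond at 1.67. Dpep2 has both points left of 0, the circle at -1.39 and the diamond at -0.19.

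Markers of some other cells were high in these arrays too, while those of others were not. The mean deviation of a list is the mean, over its measured genes, of the log2 signal minus the gene's mean over 16 arrays. The 2 measured red blood cell markers of 6 listed, Alas2 and Slc4a1, deviated by 1.43 in Sav1+/- replicate 2 and 1.38 in Rassf1a-/- Sav1+/- replicate 1. Over each genotype they ranged from -2.53 to 0.55 in wildtype, -0.56 to 0.74 in Rassf1a-/-, -0.36 to 1.43 in Sav1+/- and -0.87 to 1.38 in Rassf1a-/- Sav1+/- livers. The red cell signal was also high, at 1.16, in Rassf1a-/- Sav1+/- replicate 2, where the members averaged 0.07. It did not follow the members in the other genotypes: it was 0.74 in Rassf1a-/- replicate 2, where the members were lowest at -0.56, and near 0 in wildtype replicate 3 (-0.05) and Rassf1a-/- replicate 4 (0.04), the top macrophage arrays of their genotypes.

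Neutrophil markers, all 9 with a probe set but only 2 above the filter, deviated by 0.70 in Sav1+/- replicate 2, -0.35 in Rassf1a-/- Sav1+/- replicate 1 and 1.13 in Rassf1a-/- replicate 4. They ranged from -0.27 to 0.03 in wildtype, -0.99 to 1.13 in Rassf1a-/-, -0.28 to 0.70 in Sav1+/- and -0.35 to 0.55 in Rassf1a-/- Sav1+/- livers. The 10 measured interferon-stimulated genes of 12 deviated by 1.03 in Sav1+/- replicate 2 and -0.06 in Rassf1a-/- Sav1+/- replicate 1, with ranges of -0.91 to -0.02, -0.25 to 0.28, -0.29 to 1.03 and -0.40 to 0.25 in the 4 genotypes in the order above. So both arrays shared the red cell signal but only the former had high neutrophil and interferon signal. B cell markers, 6 of 7 measured, deviated by 0.70 in Rassf1a-/- replicate 4, the array in which the MHC class II members peaked, by 0.49 in Rassf1a-/- Sav1+/- replicate 1 and by 0.15 in Sav1+/- replicate 2. T cell markers, 8 of 9 measured, deviated by 0.28 and 0.23 in the latter arrays. Replicate 1 was the highest Rassf1a-/- Sav1+/- array for both lists. In Sav1+/- livers, however, B cell markers were highest in replicate 1 (0.26) and T cell markers in replicate 3 (0.28). Natural killer cell markers deviated by 0.40 in Sav1+/- replicate 1, 0.13 in its replicate 2 and 0.07 in Rassf1a-/- Sav1+/- replicate 1. For stellate cell markers the latter arrays gave -0.13 and 0.20. Of 7 monocyte markers 1 passed the filter, of 9 T cell markers 4, of 7 B cell markers 2 and of 7 natural killer cell markers 2, so these cells were read mostly from dim probe sets. The part of these cells in the members' values was not tested.

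No member passed the test in limma in any of 6 comparisons, each fitted on all 16 arrays and called where the p adjusted by Benjamini-Hochberg over all 13152 genes was under 0.05. The share of all genes called was 0.7% for Rassf1a-/- and 0.821% for Rassf1a-/- Sav1+/- against wildtype, and 0.0% for Sav1+/- against wildtype. For the Rassf1a effect averaged over both Sav1 states it was 2.23%, for the Sav1 effect averaged over both Rassf1a states 0.0228%, and for their interaction 0.0%. The smallest adjusted p of a member was 0.0834, that of Dpep2 for the averaged Sav1 effect. What follows therefore gives sizes and counts at an unadjusted p under 0.05, which are not calls. The comparisons with wildtype share the same 4 wildtype arrays, so their values are set side by side and are not independent of each other.

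In Rassf1a-/- livers the markers were centred near 0. The median difference from wildtype was -0.01 on the log2 scale, as over all genes (-0.01), and 16 of 32 members were above 0, against 48.3% of all genes. At an unadjusted p under 0.05, 1 member was higher (6.33% of all genes) and 0 lower (4.1%). The single higher member was Ly96, which was also the only member whose Rassf1a-/- arrays all lay above the wildtype arrays (6.55% of genes did so). Both shares of members are below the share of all genes. By role, the medians ran from -0.14 for Kupffer cell identity, with 2 of 9 genes above 0, to 0.22 for receptor signalling, with 5 of 6. The balance rested on opposed arrays: 25 of 32 members were above 0 without Rassf1a-/- replicate 2 and 5 without Rassf1a-/- replicate 4.

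Sav1+/- livers had a median difference of 0.40, and 29 of 32 members were above 0, where all genes had a median of -0.02 and 45.9% above 0. At an unadjusted p under 0.05, 3 members were higher (1.69% of all genes), Dpep2, Ly96 and Pik3ap1, and 0 were lower (7.47%). Of these, Dpep2 and Ly96 did not overlap wildtype (0.441% of genes higher in this way). Dpep2 enters both counts although it passed the filter only through the arrays in which it was bright. Its other probe set differed by 0.18. All 9 Kupffer identity genes and all 6 tested general macrophage genes were above 0, with medians of 0.41 in each role, while the MHC class II genes had a median of -0.05. The size of the shift depended on the arrays kept, and most on Sav1+/- replicate 2, an array singled out for its high values. Without Sav1+/- replicate 2 the median was 0.06 and 18 of 32 members were above 0, against 41.1% of genes. The Kupffer identity genes then had a median of 0.12, and all C1q, class II and lysosomal members lay below 0, while the same 3 members had an unadjusted p under 0.05. That count was 6 without wildtype replicate 3 (1.54% of genes) and 7 without Sav1+/- replicate 1 (6.92%).

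Rassf1a-/- Sav1+/- livers had a median difference of 0.38, again with 29 of 32 members above 0, against a median of 0.05 and 58.7% of all genes. At an unadjusted p under 0.05, 3 members were higher (7.19% of genes), Dpep2, Laptm5 and Ly96, and 0 lower (6.44%). The limit on Dpep2 holds here too. The 3 members whose arrays did not overlap wildtype from above (6.28% of genes) were others in part: Cd68, Lgmn and Laptm5. These shares of 9.38% of the members are close to those of all genes. The roles were ordered otherwise than in Sav1+/- livers, with a median of 0.08 for Kupffer identity and 0.50 for the general macrophage genes, or 0.04 and 0.30 without Rassf1a-/- Sav1+/- replicate 1. Without Rassf1a-/- Sav1+/- replicate 1 the median over members was 0.16, with 27 of 32 above 0, and 1 member, Dpep2, had an unadjusted p under 0.05 (5.15% of genes). The count was also 1 without wildtype replicate 2 (4.34%), 6 without wildtype replicate 3 (5.53%) or Rassf1a-/- Sav1+/- replicate 4 (7.13%), and 9 without Sav1+/- replicate 2 (8.99%), an array that enters this comparison only through the shared spread. With limma's array weights 17 members had an unadjusted p under 0.05, against 14.2% of genes.

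**Figure D3:**
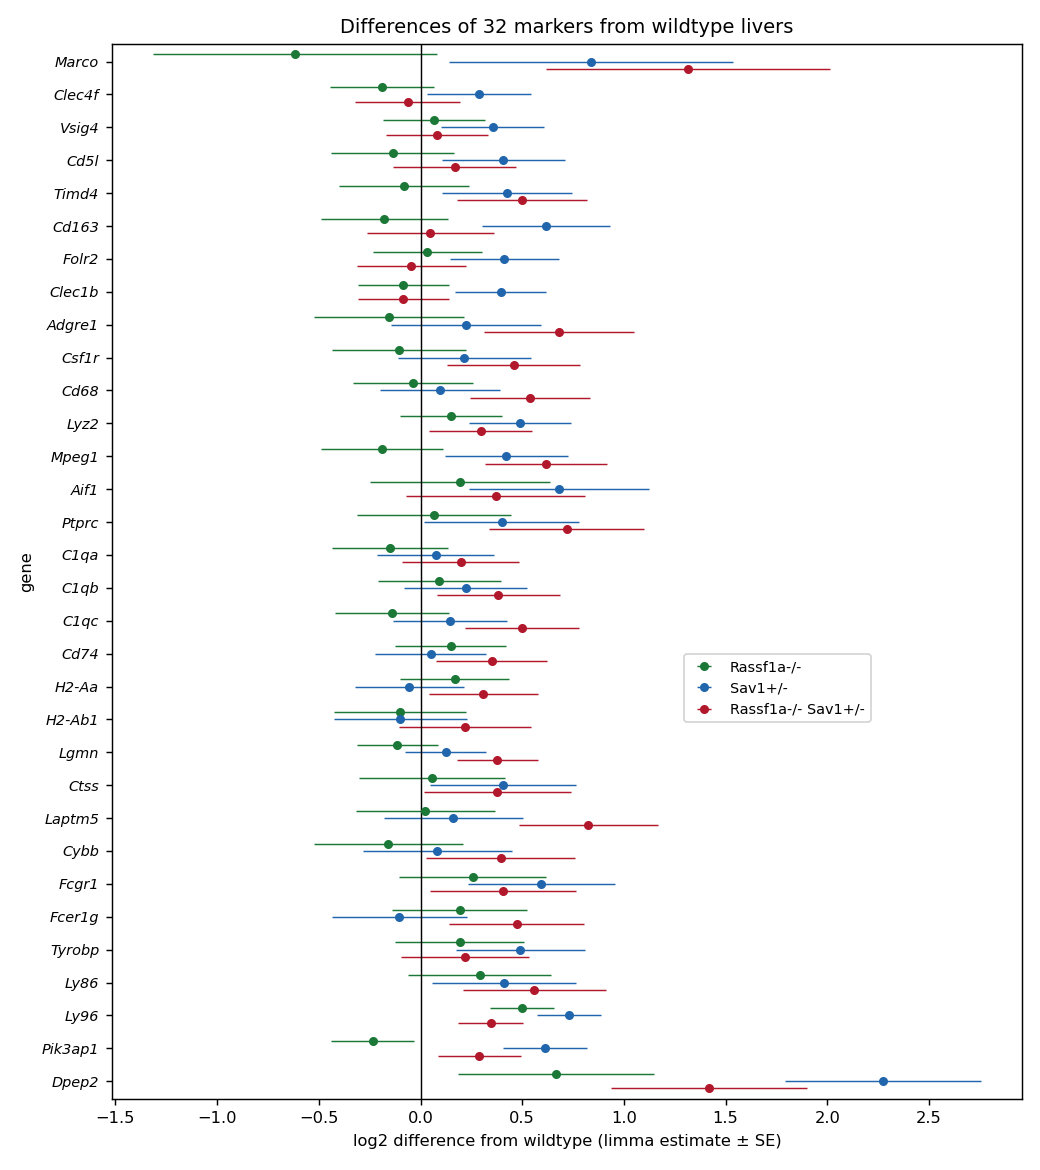
Points give limma's log2 difference from wildtype for the 32 tested markers in Rassf1a-/- (green), Sav1+/- (blue) and Rassf1a-/- Sav1+/- livers (red), and bars its standard error. The blue and red points lie right of 0 for 29 markers each and the green for 16. Among the Kupffer identity genes the red bars of Clec4f, Vsig4, Cd5l, Cd163, Folr2 and Clec1b cross 0. Red bars of some markers of other roles cross 0 too, such as C1qa, Tyrobp and H2-Ab1.

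The Rassf1a effect averaged over both Sav1 states left the list at a median of 0.02, with 0 members higher (11.7% of all genes) and 0 lower (3.6%) at an unadjusted p under 0.05. The averaged Sav1 effect had a median of 0.34, and all 32 members were above 0, where 54.0% of all genes were. Of the 32, 7 had an unadjusted p under 0.05 in the higher direction, 21.9% against 4.43% of all genes, and 0 in the lower direction (10.4%). These were Marco, Timd4, Mpeg1, Lgmn, Ly96, Pik3ap1 and Dpep2. The members were chosen with earlier results of these data known, so the shares are a description with no test over the list. Marco and Dpep2 passed the filter only through the arrays in which they were bright, and the Dpep2 probe sets disagreed. Without both high arrays, an alternative added after the data were seen, the median was 0.09, 23 of 32 members were above 0, and 3 members (Mpeg1, Pik3ap1 and Dpep2) kept an unadjusted p under 0.05, 9.38% of the members against 4.74% of genes. The count was 11 without wildtype replicate 3 (5.12% of genes), 12 without Sav1+/- replicate 1 (10.2%) and 15 without Rassf1a-/- replicate 4 (3.56%). In the fit without Sav1+/- replicate 1 Pik3ap1 passed the adjusted threshold, as did 0.38% of all genes. For the interaction, 0 members were higher (5.76%) and 2 lower (3.63%), Ly96 and Dpep2. Its median over the members was 0.11, close to the 0.09 of all genes, and it was -0.10 without wildtype replicate 3, -0.14 without Rassf1a-/- Sav1+/- replicate 1 and -0.44 without the 5 high-Y arrays.

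Among the Kupffer identity genes, Clec4f read 10.70, 10.46, 10.48 and 10.45 in wildtype replicates 1 to 4 and 10.52, 9.83, 10.14 and 10.84 in Rassf1a-/- livers. Its Sav1+/- values were 10.56, 11.63, 10.14 and 10.91, and its Rassf1a-/- Sav1+/- values 10.33, 10.28, 10.69 and 10.53. All genotypes overlapped, the wildtype arrays being the tightest, and Sav1+/- replicate 2 stood above every other array. Its differences from wildtype were -0.19, 0.29 and -0.06 for Rassf1a-/-, Sav1+/- and Rassf1a-/- Sav1+/- livers, each with SE 0.26. Without Sav1+/- replicate 2 the Sav1+/- difference was 0.01.

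Timd4, the receptor for phosphatidylserine on dying cells, which marks embryo-derived Kupffer cells, read 8.94, 8.76, 10.03 and 8.71 in wildtype livers. It read 9.02, 8.77, 8.75 and 9.58 in Rassf1a-/-, 8.99, 10.29, 9.37 and 9.49 in Sav1+/-, and 10.12, 9.87, 9.08 and 9.37 in Rassf1a-/- Sav1+/- livers. Wildtype replicate 3 was below only Sav1+/- replicate 2 and Rassf1a-/- Sav1+/- replicate 1. The Sav1+/- difference of 0.43 was 0.73 without wildtype replicate 3 and 0.18 without Sav1+/- replicate 2. The averaged Sav1 effect on Timd4 was 0.50 (SE 0.23, limma adjusted p = 0.309), and 0.32 without the high-Y arrays.

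Cd163 read 7.83, 7.51, 7.74 and 7.61 in wildtype, 7.77, 6.94, 7.30 and 7.96 in Rassf1a-/-, 7.58, 9.47, 7.70 and 8.41 in Sav1+/-, and 7.62, 7.69, 7.66 and 7.91 in Rassf1a-/- Sav1+/- livers. Sav1+/- replicates 2 and 4 were above all other arrays. The Sav1+/- difference was 0.62 (SE 0.31, limma adjusted p = 0.587), and 0.22 without Sav1+/- replicate 2.

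Marco, a collagen-like scavenger receptor, varied widely over the arrays, in a graded run from 5.30 to 9.01. It read 5.30, 6.15, 8.70 and 5.32 in wildtype, 6.11, 5.73, 5.60 and 5.57 in Rassf1a-/-, 6.24, 7.75, 7.73 and 7.12 in Sav1+/-, and 8.91, 9.01, 6.70 and 6.12 in Rassf1a-/- Sav1+/- livers. The Rassf1a-/- arrays lay between 5.57 and 6.11, and 3 of 4 wildtype arrays between 5.30 and 6.15. All Rassf1a-/- and 3 of 4 wildtype values lay below the filter level, so no fold is given. On the measured log2 scale the averaged Sav1 effect was 1.39 (SE 0.49, limma adjusted p = 0.202). Of the 5 arrays in which Marco reached the filter level, 3 were among the 5 with high Y-linked signal. In a fit with the mean Y-linked signal as covariate the averaged effect was 0.99, and without the high-Y arrays it was 0.64.

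Adgre1, an adhesion receptor widely used to mark mouse macrophages, read 9.83, 9.40, 10.57 and 9.58 in wildtype and 9.74, 9.29, 9.50 and 10.24 in Rassf1a-/- livers. It read 9.57, 11.09, 9.64 and 9.97 in Sav1+/- and 11.40, 10.78, 10.13 and 9.79 in Rassf1a-/- Sav1+/- livers. The last genotype held the highest array but overlapped wildtype, and its difference was 0.68 (SE 0.37, limma adjusted p = 0.443). That difference was 0.39 without Rassf1a-/- Sav1+/- replicate 1 and 0.12 without the high-Y arrays. Vsig4, Cd5l, Folr2 and Clec1b complete the role. Cd5l is a secreted inhibitor of macrophage apoptosis, and Clec1b a lectin-like receptor shared with platelets. Their differences lay between -0.14 and 0.07 in Rassf1a-/-, 0.35 and 0.41 in Sav1+/-, and -0.08 and 0.17 in Rassf1a-/- Sav1+/- livers, and each was highest in Sav1+/- replicate 2, without which the Sav1+/- differences were 0.06 to 0.13.

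**Figure D4:**
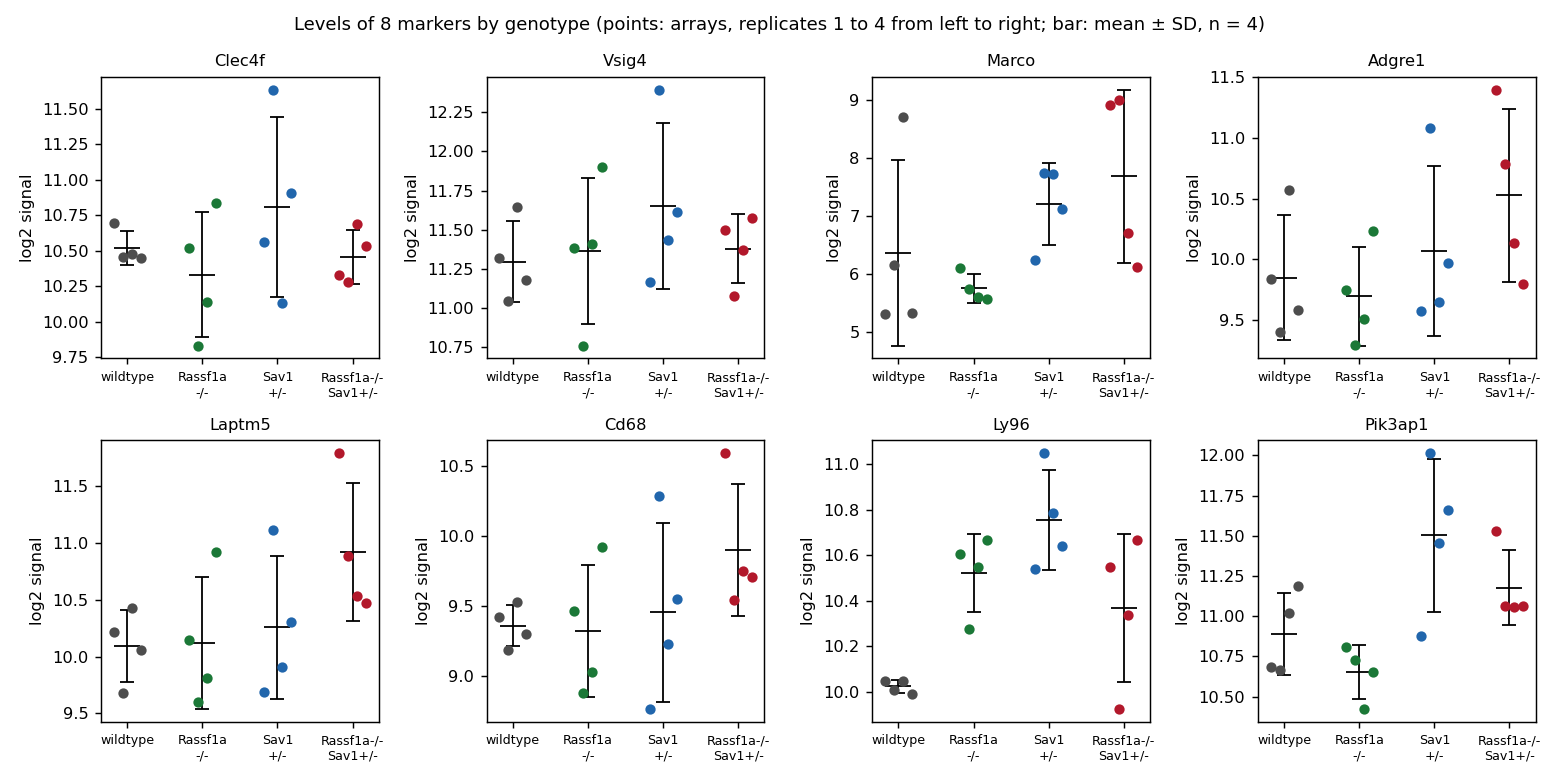
Points are the log2 signals of single arrays for 8 markers, replicates 1 to 4 from left to right within a genotype, with the mean and SD (n = 4). Ly96 is the only panel in which the wildtype arrays, 9.99 to 10.05, lie below all Rassf1a-/- and all Sav1+/- arrays, and in Clec4f and Vsig4 the top point is Sav1+/- replicate 2.

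Csf1r, the receptor for the growth factors that keep macrophages alive, read 10.29, 9.81, 10.48 and 9.99 in wildtype, 10.23, 9.41, 9.84 and 10.66 in Rassf1a-/-, 9.77, 11.47, 9.81 and 10.38 in Sav1+/-, and 11.07, 10.59, 10.42 and 10.32 in Rassf1a-/- Sav1+/- livers. Cd68, a lysosomal glycoprotein of macrophages, read 9.42, 9.19, 9.53 and 9.30 in wildtype, 9.46, 8.88, 9.03 and 9.92 in Rassf1a-/-, 8.77, 10.28, 9.23 and 9.55 in Sav1+/-, and 10.59, 9.54, 9.75 and 9.71 in Rassf1a-/- Sav1+/- livers. For Cd68 the lowest Rassf1a-/- Sav1+/- array, 9.54, was just above the highest wildtype array, 9.53, and Csf1r overlapped in every genotype. The Rassf1a-/- Sav1+/- differences were 0.46 (SE 0.33) for Csf1r and 0.54 (SE 0.29) for Cd68, with limma adjusted p of 0.591 and 0.448. Without Rassf1a-/- Sav1+/- replicate 1 they were 0.30 and 0.31, and without the high-Y arrays 0.23 and 0.37.

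Mpeg1 encodes perforin-like pores that macrophages insert into engulfed bacteria. It read 10.12, 9.75, 10.26 and 9.91 in wildtype, 9.95, 9.16, 9.79 and 10.39 in Rassf1a-/-, 10.18, 11.40, 9.96 and 10.19 in Sav1+/-, and 11.17, 10.76, 10.38 and 10.20 in Rassf1a-/- Sav1+/- livers. In Sav1+/- livers a single array stood out, while in Rassf1a-/- Sav1+/- livers 3 of 4 arrays were above the wildtype maximum. The averaged Sav1 effect was 0.61 (SE 0.21, limma adjusted p = 0.195), and it lay between 0.45 and 0.71 when single arrays were left out. Lyz2, Aif1 and Ptprc had Rassf1a-/- Sav1+/- differences of 0.30, 0.37 and 0.72, which were 0.08, 0.02 and 0.30 without Rassf1a-/- Sav1+/- replicate 1. Itgam, below the filter, read from 5.40 to 7.44 over the 16 arrays.

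The 3 C1q genes, whose products form the recognition part of the complement cascade and which macrophages make in most tissues, had Rassf1a-/- Sav1+/- differences of 0.20 to 0.50, and of -0.02 to 0.28 without Rassf1a-/- Sav1+/- replicate 1. In Sav1+/- livers their differences were 0.07 to 0.22, and without Sav1+/- replicate 2 all 3 were below 0. The class II genes Cd74, H2-Aa and H2-Ab1 encode the invariant chain and the peptide-presenting heterodimer, and B cells and dendritic cells make them as well. Their differences lay between -0.10 and 0.17 in Rassf1a-/-, -0.10 and 0.05 in Sav1+/-, and 0.22 and 0.35 in Rassf1a-/- Sav1+/- livers, the last being 0.05 to 0.20 without replicate 1 of that genotype. H2-Aa read 11.44 in Sav1+/- replicate 2, inside the wildtype range of 11.03 to 11.99, and 12.49 in Rassf1a-/- replicate 4.

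Of the lysosome and phagosome members, Laptm5 read 10.22, 9.68, 10.43 and 10.05 in wildtype, 10.15, 9.60, 9.81 and 10.92 in Rassf1a-/-, 9.69, 11.12, 9.91 and 10.31 in Sav1+/-, and 11.79, 10.89, 10.53 and 10.47 in Rassf1a-/- Sav1+/- livers. All 4 arrays of the last genotype were above all wildtype arrays. The difference was 0.83 (SE 0.34, limma adjusted p = 0.292), a 1.77-fold difference, and 0.53 without Rassf1a-/- Sav1+/- replicate 1 and 0.41 without the high-Y arrays. Lgmn, an asparagine-specific protease of the lysosome, read 11.20, 10.78, 11.22 and 10.98 in wildtype and 11.60, 11.46, 11.24 and 11.38 in Rassf1a-/- Sav1+/- livers. It read 10.94, 10.80, 10.82 and 11.16 in Rassf1a-/- and 10.56, 11.80, 11.12 and 11.19 in Sav1+/- livers. The gap between wildtype and Rassf1a-/- Sav1+/- arrays was narrow, 11.22 against 11.24, and the difference was 0.38 (SE 0.20, limma adjusted p = 0.429). Ctss, which trims the invariant chain for antigen loading, and Cybb, the catalytic subunit of the phagocyte oxidase, had differences of 0.38 and 0.39 in the same genotype, and of 0.15 and 0.07 without its replicate 1.

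Ly96 had the smallest spread of the tested members. It encodes the lipid-binding partner of the endotoxin receptor Tlr4. It read 10.05, 10.01, 10.05 and 9.99 in wildtype livers, an SD of 0.03 where the median member spread was 0.49. It read 10.61, 10.28, 10.55 and 10.67 in Rassf1a-/-, 10.54, 11.05, 10.79 and 10.64 in Sav1+/-, and 10.55, 9.93, 10.34 and 10.67 in Rassf1a-/- Sav1+/- livers. All 8 arrays of the single genotypes lay above all wildtype arrays, whereas 1 array of the double genotype lay below them. The differences from wildtype were 0.50 (limma adjusted p = 0.221), 0.73 (adjusted p = 0.149) and 0.34 (adjusted p = 0.352), each with SE 0.16, or 1.41-fold, 1.66-fold and 1.27-fold. None was called. The Sav1+/- difference was 0.63 without Sav1+/- replicate 2, and the Rassf1a-/- difference stayed between 0.45 and 0.58 when single arrays were left out. With limma's array weights, which count uneven arrays for less, the Rassf1a-/- difference was 0.55 with an adjusted p of 0.0114, where 6.83% of all genes were called. The interaction was -0.89 (SE 0.22, limma adjusted p = 0.343), so the sum of both single differences exceeded the difference of the double genotype, but this did not pass the test.

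Pik3ap1, an adaptor that links Toll-like and B cell receptors to phosphoinositide 3-kinase, read 10.68, 10.67, 11.02 and 11.19 in wildtype and 10.81, 10.73, 10.42 and 10.65 in Rassf1a-/- livers. It read 10.88, 12.01, 11.46 and 11.66 in Sav1+/- and 11.53, 11.06, 11.06 and 11.07 in Rassf1a-/- Sav1+/- livers. Of the 4 Sav1+/- arrays, 3 were above all wildtype arrays. The Sav1+/- difference was 0.61 (SE 0.20, limma adjusted p = 0.333) and the averaged Sav1 effect 0.57 (SE 0.14, adjusted p = 0.121). The averaged effect was 0.48 without Sav1+/- replicate 2 and 0.67 without Sav1+/- replicate 1, where its adjusted p was 0.0444. Fcgr1, Fcer1g, Tyrobp and Ly86 complete the role. Ly86 encodes the partner of a Toll-like receptor homologue, and Fcgr1 the receptor that binds IgG most tightly. Their Sav1+/- differences ran from -0.10 for Fcer1g to 0.59 for Fcgr1, and their Rassf1a-/- Sav1+/- differences from 0.22 to 0.56. Without Sav1+/- replicate 2 the former ran from -0.03 to 0.23, and without Rassf1a-/- Sav1+/- replicate 1 the latter ran from -0.10 for Tyrobp to 0.26.

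Dpep2, a membrane dipeptidase that cleaves leukotriene D4, was read by probe sets that disagreed. The brighter probe set, 10581448, read 6.04, 7.49, 6.22 and 5.86 in wildtype, 6.62, 7.55, 7.80 and 6.32 in Rassf1a-/-, 8.49, 7.64, 8.30 and 10.29 in Sav1+/-, and 7.68, 8.29, 7.33 and 7.996 in Rassf1a-/- Sav1+/- livers. All Sav1+/- arrays were above all wildtype arrays, and the spread within genotypes was wide. Unlike most members, this probe set was below its group in both high arrays. The excess was -1.39 in Sav1+/- replicate 2 and -0.19 in Rassf1a-/- Sav1+/- replicate 1. Of the 4 wildtype values 3 lay below the filter level, so the sizes of the differences are uncertain. The measured log2 differences from wildtype were 0.67, 2.27 and 1.42, each with SE 0.48, and the limma adjusted p were 0.639, 0.149 and 0.197. Without Sav1+/- replicate 4 the Sav1+/- difference was 1.74, and 1.93 in the fit with the Y-linked covariate. The other probe set, 10581434, stayed below the filter level, with values from 5.64 to 6.75, and its differences were -0.09, 0.18 and 0.30 (SE 0.19 each). The platform annotation gives 3 RefSeq accessions among the 6 of the dim probe set and 0 among the 2 of the bright probe set, so which transcript the bright probe set reads is uncertain.

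**Figure D5:**
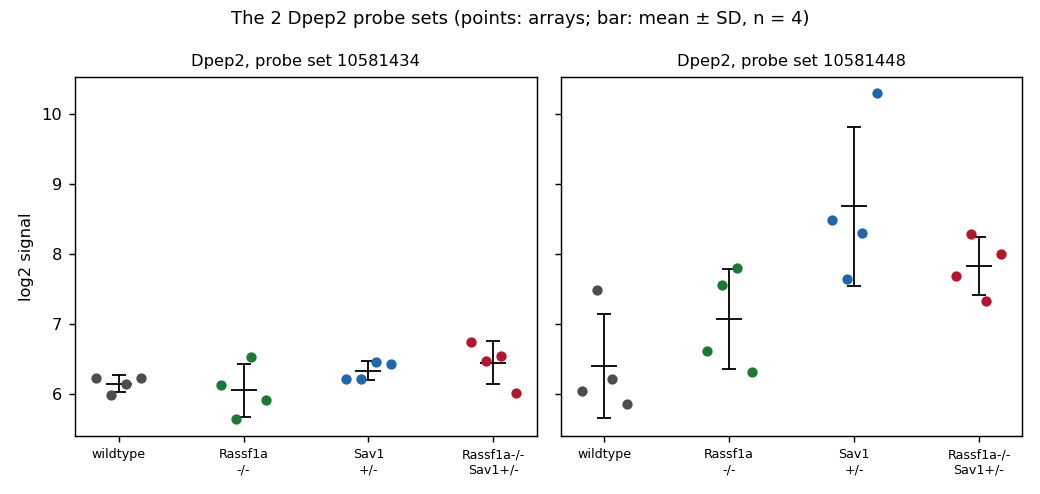
Each panel plots the log2 signal of a Dpep2 probe set by array and genotype, with the mean and SD (n = 4), on a shared vertical axis. The dim probe set (left) stays between 5.64 and 6.75 in all genotypes, while the bright one (right) runs from 5.86 to 10.29.

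Other genes of macrophage biology were read from separate lists. Of the macrophage transcription factors, 8 of 10 were tested, and Cebpb, which drives myeloid and also hepatocyte genes, was called. Cebpb read 10.07, 9.31, 9.61 and 9.38 in wildtype, 8.48, 8.45, 8.37 and 8.72 in Rassf1a-/-, 9.07, 10.03, 9.44 and 10.09 in Sav1+/-, and 9.28, 9.23, 8.70 and 8.83 in Rassf1a-/- Sav1+/- livers. It was lower in Rassf1a-/- livers by -1.09 (SE 0.22, limma adjusted p = 0.0255), and the averaged Rassf1a effect was -0.87 (adjusted p = 0.00597). Every Rassf1a-/- array lay below every wildtype array. Irf5, a regulator of inflammatory macrophage genes, had a Rassf1a-/- Sav1+/- difference of 0.80 (adjusted p = 0.110) and Id3, needed for Kupffer cell development, a Sav1+/- difference of -0.82 (adjusted p = 0.181). Neither was called. The growth factors and chemokines had 0 of 8 tested genes called in any comparison, and so did the 12 pattern recognition and scavenger receptors, the 7 Fc and complement receptors, the 3 class II loading genes, the 6 iron handling genes, the 4 inflammatory cytokines and the 5 genes of recruited macrophages. At an unadjusted p under 0.05 in limma, no list had more than 3 such genes in a comparison. Of all genes, 1.69% to 11.7% were higher and 3.6% to 10.4% lower in this way, depending on the comparison. In Sav1+/- livers 10 of the 12 pattern and scavenger receptors and all 7 Fc and complement receptors were above 0, with medians of 0.31 and 0.07, against 45.9% of all genes. Over Sav1+/- replicates 1 to 4 the mean deviation of the former list was -0.29, 0.88, -0.27 and 0.11. That of the latter list was -0.55, 0.58, -0.13 and -0.07, so replicate 2 was the highest for both. Among genes of recruited macrophages, Lpl had a Rassf1a-/- Sav1+/- difference of 1.32 (limma adjusted p = 0.143). In the iron handling list, the haem oxygenase Hmox1 had one of 0.84 (limma adjusted p = 0.153).

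Interferon-stimulated genes, which macrophages and hepatocytes both express, had Sav1+/- differences above 0 for all 8 tested genes, with a median of 0.88. Of all genes, 45.9% were above 0. Among the 8, 7 had an unadjusted limma p under 0.05 (1.69% of all genes were higher in this way) and 0 were called (0.0%). The mean deviation of the 10 measured genes was -0.29, 1.03, 0.48 and 0.54 in Sav1+/- replicates 1 to 4. Ifi27l2a was called for the averaged Rassf1a effect, at -0.73 (limma adjusted p = 0.0471). It read 7.52, 6.90, 7.07 and 6.96 in wildtype, 7.31, 6.87, 7.18 and 7.504 in Rassf1a-/-, 8.04, 9.16, 8.04 and 8.29 in Sav1+/-, and 7.25, 6.10, 6.97 and 6.91 in Rassf1a-/- Sav1+/- livers. The Sav1+/- arrays were all above the rest, while the Rassf1a-/- arrays, 6.87 to 7.504, covered nearly the wildtype range of 6.90 to 7.52. The averaged value thus lay in the gap between Sav1+/- and Rassf1a-/- Sav1+/- livers, and Rassf1a-/- livers were not lower than wildtype.

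The promoters of the members were searched for short motifs known from macrophage, lysosomal and general promoters. RefSeq promoters (assembly GRCm38.p6), 250 bases before to 50 after a start, were listed for 26 of the 34 genes. GAGGAA, the core bound by PU.1, the macrophage factor encoded by Spi1, was present on either strand in 15 of 26 genes, 57.7%, against 31.3% of 27025 genes in the table. The longer form GAGGAAGT, which contains the former, was present in 2 of 26 genes (7.69%) against 3.69%. The E-box CACGTG, read by lysosomal regulators, was found in 2 of 26 (7.69%) against 8.09%, and CCAAT in 9 of 26 (34.6%) against 41.1%. A match is a description of letters and not a bound site. Spi1 itself read 9.31 in Sav1+/- replicate 2 and 9.76 in Rassf1a-/- Sav1+/- replicate 1, above the other 14 arrays, which lay between 7.84 and 8.94. The 100 bases before the start are shown for 5 of the 8 members that hold GAGGAA there, from 4 roles, and for Clec4f, the defining Kupffer marker, which does not. Capitals mark GAGGAA or its reverse complement TTCCTC, and each sequence runs 5′ to 3′ on the gene's own strand.
Vsig4, chrX:96293439-96293538, minus strand: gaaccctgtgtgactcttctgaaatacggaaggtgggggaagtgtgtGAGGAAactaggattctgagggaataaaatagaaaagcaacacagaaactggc
Cd5l, chr3:87357781-87357880, plus strand: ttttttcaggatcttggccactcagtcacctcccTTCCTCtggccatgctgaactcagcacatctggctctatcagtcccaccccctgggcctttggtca
C1qb, chr4:136886201-136886300, minus strand: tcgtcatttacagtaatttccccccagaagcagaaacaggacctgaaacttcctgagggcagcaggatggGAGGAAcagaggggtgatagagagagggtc
Laptm5, chr4:130913216-130913315, plus strand: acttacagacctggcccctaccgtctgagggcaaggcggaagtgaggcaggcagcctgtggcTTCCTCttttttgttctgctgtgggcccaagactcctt
Pik3ap1, chr19:41385103-41385202, minus strand: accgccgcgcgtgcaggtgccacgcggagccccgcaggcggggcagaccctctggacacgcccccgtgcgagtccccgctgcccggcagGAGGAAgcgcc
Clec4f, chr6:83656117-83656216, minus strand: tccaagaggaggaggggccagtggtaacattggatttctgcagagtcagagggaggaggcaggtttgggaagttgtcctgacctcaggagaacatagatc

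In these windows the capitals begin 53 bases before the start of Vsig4, 66 before that of Cd5l, 30 before that of C1qb, 38 before that of Laptm5 and 11 before that of Pik3ap1. Of the 5, Vsig4, Cd5l and Pik3ap1 peaked in Sav1+/- replicate 2 and C1qb and Laptm5 in Rassf1a-/- Sav1+/- replicate 1, and Clec4f, without the letters, peaked in Sav1+/- replicate 2 as well.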

How the data were processed

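Liver RNA of 16 samples, 4 per genotype, was read on Affymetrix gene arrays. The authors deposited log2 signals per probe set, and Affymetrix Expression Console made them, per the submitters' processing notes. Not given in the sources used here are its version, the summarisation, the normalization and the genome build. No scanner files were used, so signal over background is known only through the filter, and precision is limited by the number of arrays. The platform annotation named 1 gene for 21789 of 35556 probe sets, several for 1621, and these were left out; 21698 matched RefSeq by gene ID. The probe set of highest mean stood for a gene. The 13152 genes that reached the array's 40th percentile in 4 or more arrays were fitted with limma 3.58.1 (R 4.3.3, and the data.table package, version 1.17.8) as 4 group means with 12 residual degrees of freedom, and p-values were adjusted by Benjamini-Hochberg over all of them. The fit was tested on simulated data. Of 28 alternative settings, 16 left out 1 array each; the fit of only the compared genotypes covered the 3 comparisons with wildtype, and the other Dpep2 probe set only that gene.

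The members and all lists were chosen with earlier results of these data known. Values are given array by array for the 4 members with the smallest p in each comparison with wildtype and for the defining markers Clec4f, Timd4, Adgre1, Cd68 and Csf1r; of other lists, called genes and at most 3 with the smallest p are named. Lgmn, H2-Aa and Spi1, and members singled out in the high arrays, were chosen after their values were seen. Replicates are numbered in deposited order, which pairs nothing.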

Additional observations from a re-analysis of the deposited data

Results flagged for a closer look

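In groups of 4 arrays, an array was singled out when its gap to the nearest other array exceeded Dixon's 95% critical value of the group's range. Of 132 groups examined, 12 had such an array, and chance gives about 1 in 20 groups. In 8 of the 12 the array was Rassf1a-/- Sav1+/- replicate 1, with Aif1 at 8.20, Ptprc at 10.12, C1qb at 11.996, C1qc at 11.82, Ctss at 10.23, Cybb at 10.95, Ly86 at 10.38 and Pik3ap1 at 11.53, each above the other 3 arrays. The same array had the highest Spi1 signal, 9.76, and a red blood cell marker deviation of 1.38. In Sav1+/- replicate 2, Mpeg1 stood apart at 11.40. In wildtype livers Clec4f stood apart at 10.70 in replicate 1, and Timd4 at 10.03 and Lyz2 at 12.09 in replicate 3. Members of a list share an array, so these are not separate events.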

How the results depend on the processing

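No paired analysis was possible because no sample carries a replicate number. Counts of members called stayed at 0 in the settings tried, with these exceptions. With array weights, 1 member was called in Rassf1a-/- livers (Ly96), 3 in Rassf1a-/- Sav1+/- livers (Mpeg1, Laptm5 and Dpep2) and 3 for the averaged Sav1 effect (Marco, Pik3ap1 and Dpep2), where 6.83%, 9.36% and 11.5% of all genes were called. For the averaged Sav1 effect, leaving out single arrays gave 0 to 1 called. The interaction's median over the members was -0.44 without the high-Y arrays, those with high Y-linked signal.

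Leaving out single arrays turned the sign of 22 of 32 members' differences for Rassf1a-/-, 14 for Sav1+/-, 6 for the double genotype, 18 for the averaged Rassf1a effect, 3 for the averaged Sav1 effect and 11 for the interaction. For example, in Rassf1a-/- livers Marco ranged from -0.97 to 0.16, Timd4 from -0.26 to 0.23, Adgre1 from -0.33 to 0.0894, Cd68 from -0.24 to 0.11 and Csf1r from -0.31 to 0.10. In Sav1+/- livers Adgre1 ranged from -0.12 to 0.46, Cd68 from -0.18 to 0.33 and Csf1r from -0.15 to 0.41, and without both high arrays they were -0.12, -0.18 and -0.15. In Rassf1a-/- livers Cd68 was 0.0301 with arrays centred on their medians, 0.11 without the high-Y arrays and 0.12 with array weights. In the latter settings Timd4 was 0.0077 and 0.0137, and Csf1r 0.10 and 0.0597. Clec4f in Rassf1a-/- Sav1+/- livers was 0.17 with the Y-linked covariate and 0.0899 without the high-Y arrays. The other Dpep2 probe set gave -0.0947 in Rassf1a-/- livers and 0.21 for the interaction. The cause of these turns was not tested.

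The number of arrays limits the precision.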
